A study of Mus musculus with 160 samples.

Results

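Ephrins, semaphorins, Slits and netrins are guidance cues, and the Eph, plexin, Robo, Unc5 and Dcc proteins are the receptors that read them. The members described here are the protein-coding genes of the count table whose symbol belongs to these families. Of 46078 genes in the table, 21596 are protein-coding and 65 of those carried such a symbol. Efnb2 and Ephb4 were left out and are counted with the other genes of the pathway, so that 63 members remain. They are 9 Eph receptors of class A and 4 of class B, 5 ephrins of class A and 2 of class B, 7 secreted and 13 membrane-bound semaphorins, 9 plexins, 3 Slits, 3 Robo receptors, 3 netrins and 5 netrin receptors (Dcc and Unc5a to Unc5d).

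The samples come from mouse embryos that carry GFP in the Gata3 locus, so that GFP marks cells in which the locus is active. Cells of the aorta-gonad-mesonephros region (AGM), where blood stem cells first arise, were dissociated with collagenase and sorted into pools of 20 cells. At E10.5 the sorted cells were endothelial cells (ECs, VE-cadherin+) and haematopoietic cells (HCs, CD41+ or CD45+). At E11.5 they were mesenchymal cells (MCs, PDGFRB+) and cells of the sympathetic nervous system (SNS, p75+, the product of Ngfr). Each cell type was split into Gata3-GFP+ and Gata3-GFP- cells, here GFP+ and GFP-, which gives 8 populations with 20 pools each, sequenced with Smart-seq2. The GFP- cells are not mutants: the fractions differ in the activity of the GFP allele and were sorted from the same kind of embryo. Embryos were pooled within each biological replicate, and the labels do not link a pool to its replicate. Every p-value below thus measures the spread between pools. At E10.5 the paper names fewer biological replicates than pools. A pool is a bulk sample, in which fewer expressing cells and less RNA per cell cannot be told apart.

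Guidance cues steer growing axons, migrating neural crest cells and sprouting vessels by attracting or repelling the cell that carries the receptor. Ephrins stay on the membrane of the cell that makes them, those of class A on a lipid anchor and those of class B as transmembrane proteins, and each class binds mainly Eph receptors of its own class. Class 3 semaphorins are secreted and mostly act through neuropilins paired with a plexin, while semaphorins of classes 4 to 7 are held on the membrane and bind plexins directly. Slits bind Robo receptors, and netrins bind Dcc, which mediates attraction, or Unc5 receptors, which mediate repulsion. Sympathetic neurons and their precursors reach the dorsal aorta along paths that semaphorins and ephrins help to set, and arterial endothelium is known for ephrin, plexin and Unc5b signalling.

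Of the 160 pools, 7 failed the study's read limits and were left out. The others are 19 GFP+ EC, 20 GFP- EC, 20 GFP+ HC, 20 GFP- HC, 20 GFP+ MC, 17 GFP- MC, 18 GFP+ SNS and 19 GFP- SNS pools. Levels are in CPM (a gene's counts relative to the library size of its pool), normalized by TMM over all passing pools. Gata3 had a median of 78.005 CPM in GFP+ ECs and 10.47 CPM in GFP- ECs, and 45.1 CPM and 7.03 CPM in the corresponding HCs. Cdh5, which encodes VE-cadherin, had medians of 1001 CPM and 430.4 CPM in GFP+ and GFP- ECs and of 9.68 CPM and 4.05 CPM in HCs. Ptprc, which encodes CD45, showed the opposite order, with 208 CPM and 429 CPM in HCs and 2.95 CPM and 4.23 CPM in ECs. Itga2b, which encodes CD41, had medians of 233 CPM in GFP+ and 8.66 CPM in GFP- HCs and of 2.57 and 4.40 CPM in ECs. The HC fractions thus differ in the genes of their gate, with log2 fold changes of GFP+ over GFP- of 3.68 (SE 0.56, adjusted p 1.40e-06) for Itga2b and -1.09 (SE 0.22, adjusted p 8.15e-05) for Ptprc, and their part in the HC results was not tested. The medians of Cdh5 and Ptprc match the labels at E10.5. The lowest GFP+ HC pool had 4.66 CPM of Ptprc, below the highest GFP+ EC pool at 25.9 CPM. In 19 of 20 GFP+ HC pools Ptprc was above all GFP+ EC pools.

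At E11.5 the sorting genes of 12 pools go against the label. In 12 passing pools, 3 of each population, the balance of Ngfr and Pdgfrb is that of the other cell type. They are the last 3 columns of each of these populations in the count table. The 3 such GFP+ MC pools had 291 to 324 CPM of Ngfr and 1.09 to 12.4 CPM of Pdgfrb, against 0.103 to 11.3 CPM and 167 to 292 CPM in the other 17. The 3 GFP- MC pools had 28.9 to 110.8 CPM of Ngfr, 0.954 to 1.89 CPM of Pdgfrb and 122.7 to 395 CPM of Gata3. In the remaining 14 GFP- MC pools Ngfr reached 17.3 CPM at most, Pdgfrb was 109.8 to 235 CPM and Gata3 2.52 to 19.04 CPM. The 3 GFP+ SNS pools had 116.6 to 130.98 CPM of Pdgfrb and 0.905 to 7.22 CPM of Ngfr, and the 3 GFP- SNS pools had 136.2 to 249.8 CPM of Pdgfrb and 4.24 to 7.74 CPM of Ngfr. The other SNS pools had at most 28.8 CPM of Pdgfrb and at least 45.9 CPM of Ngfr. Gata3 was 9.97 to 24.3 CPM in the 3 GFP+ SNS pools, below the 111.2 to 306 CPM of the other 15. Gata3 thus goes against the GFP label as well, both in these 3 pools and in the 3 GFP- MC pools. In GFP- SNS it was 44.4 to 50.2 CPM in the 3 pools and 11.2 to 94.04 CPM in the other 16, and in GFP+ MCs 16.3 to 82.3 and 19.7 to 70.5 CPM. Ngfr of the 3 GFP+ MC pools lies within the 188.4 to 339 CPM of the other GFP- SNS pools. The other GFP+ SNS pools had 45.9 to 153.4 CPM. With all pools Gata3 itself was not called between the MC fractions by the edgeR fits described below (-0.66, SE 0.52, adjusted p 0.496). In SNS it was called, at 1.85. No pool was given another label. The E11.5 comparisons and summed levels were made with all passing pools and again without these 12, a choice made after seeing the data.

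**Figure D1:**
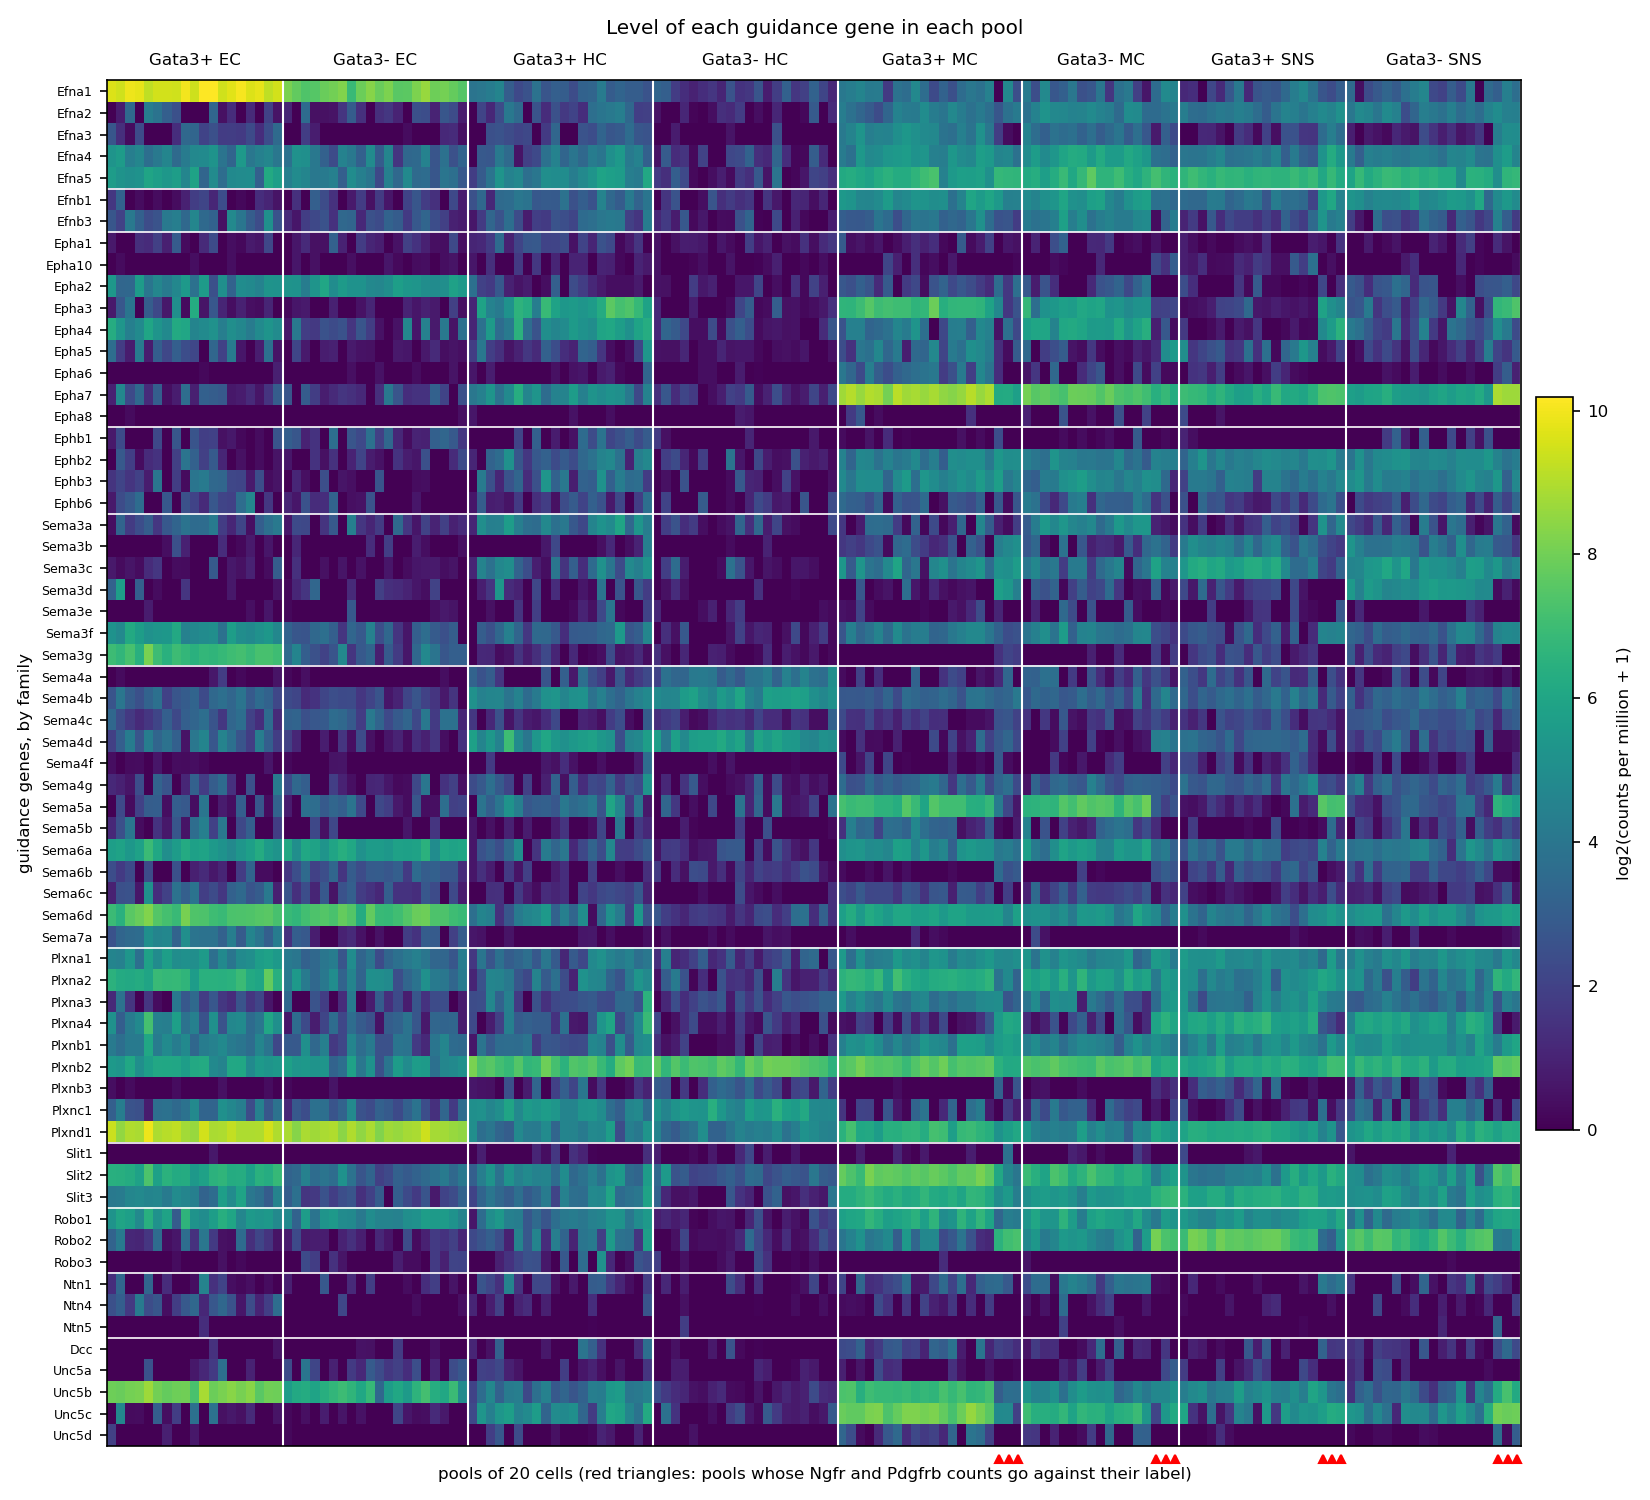
Level of each of the 63 guidance genes (vertical axis, grouped by family) in each passing pool (horizontal axis, grouped by population), as log2(CPM + 1). Triangles mark the 12 pools whose Ngfr and Pdgfrb counts go against their label.

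The heat map shows guidance genes that differ in level between populations, most of them detected in several, and 12 pools that follow the pattern of the other cell type. In GFP+ ECs 32 members had at least 10 counts in 50% or more of the pools, in GFP- ECs 22, in GFP+ HCs 35 and in GFP- HCs 11. At E11.5 the numbers were 43 in GFP+ MCs, 38 in GFP- MCs, 38 in GFP+ SNS and 41 in GFP- SNS pools. The GFP- HCs thus had the fewest guidance genes at this limit of the 8 populations. The limit is on raw counts, so these numbers also depend on depth. Median counts on genes were 3685639 in GFP+ and 2801408 in GFP- ECs, and 3180193 and 3712266 in HCs. The median number of all genes with 10 counts was 12417 and 11578 in ECs and 12583 and 12073 in HCs. There were 5 members that reached the limit in all 8 populations, 6 in a single population and 10 in none. Summed over the 63 members, the mean level was 2702 CPM in GFP+ ECs and 1260.0 CPM in GFP- ECs, and 843 CPM in GFP+ HCs and 417 CPM in GFP- HCs. It was 2180.1 CPM in GFP+ MCs, 1547 CPM in GFP- MCs, 1202 CPM in GFP+ SNS and 1254 CPM in GFP- SNS pools. The sums at E11.5 without the 12 pools were 2367, 1611, 1157 and 1065 CPM in the same order, and the numbers of members detected 42, 40, 39 and 42.

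Levels of different genes are compared per kb of exon. In GFP+ ECs the highest was Efna1, an EphA ligand of endothelium, at 452 CPM per kb, followed by the semaphorin receptor Plxnd1 at 75.2, the netrin receptor Unc5b at 43.4, the secreted Sema3g at 27.97 and the membrane-bound Sema6d at 16.1 CPM per kb. GFP- ECs kept Efna1 (131.1), Plxnd1 (59.7), Sema6d (14.7) and Unc5b (12.4) among their 5 highest, with Efna4 at 9.03 CPM per kb in place of Sema3g. An ephrin thus leads the list in both EC fractions. In GFP+ HCs the highest were the plexin Plxnb2 (20.4 CPM per kb), the ephrins Efna4 (8.50) and Efna5 (7.13), the ephrin receptor Epha3 (8.16) and Sema4d (5.36). In GFP- HCs the 5 highest were plexins and class 4 semaphorins alone: Plxnb2 (22.6), Sema4b (6.86), Sema4d (5.66), Plxnc1 (5.16) and Plxnd1 (2.57 CPM per kb).

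At E11.5 the Epha7 receptor led in GFP+ MCs with 38.4 CPM per kb, ahead of Plxnb2 (21.9), Efna4 (19.6), Efna5 (19.1) and Unc5b (16.6). GFP- MCs had Efna4 at 28.3, Efna5 at 24.5, Plxnb2 at 18.9, Epha7 at 17.5 and Efna2 at 9.87 CPM per kb. The same ephrins and Epha7, a receptor that binds them, are therefore high together in mesenchyme. Efna5 was highest in both SNS fractions, with 24.8 CPM per kb in GFP+ and 20.8 in GFP- pools, followed by Efna4 (13.1 and 12.9). In GFP+ SNS pools Slit3 (11.4), Plxnb2 (10.2) and Epha7 (9.75) came next, and in GFP- SNS pools Plxnb2 (12.3), Epha7 (11.6) and the class B ephrin Efnb1 (9.81 CPM per kb). Without the 12 pools the 5 highest members of GFP+ MCs were the same and Efna2 gave way to Efnb1 (11.2) in GFP- MCs. Epha7 left the 5 highest of GFP- SNS, where it fell to 5.49 CPM per kb, and Robo2 (8.07) entered. In GFP+ SNS, Robo2 (11.1) and Plxnd1 (9.39 CPM per kb) took the places of Plxnb2 and Epha7.

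Each member has a population in which its mean CPM is highest. GFP+ ECs hold that place for 11 members: Efna1, Ntn4, Plxna1, Plxna2, Plxnd1, Sema3f, Sema3g, Sema6c, Sema6d, Sema7a and Unc5b. GFP- ECs hold it for 6 (Epha2, Ephb1, Sema4c, Sema6a, Sema6b and Unc5a), GFP+ HCs for 2 (Epha1 and Robo3) and GFP- HCs for 6 (Plxnb2, Plxnb3, Plxnc1, Sema4a, Sema4b and Sema4d). The 15 members highest in GFP+ MCs are Epha3, Epha5, Epha6, Epha7, Ephb3, Efna3, Efnb1, Robo1, the 3 Slits, Sema5b, Dcc, Unc5c and Unc5d. GFP- MCs are highest for 10 members, which are Efna2, Efna4, Efnb3, Epha4, Epha8, Ephb6, Ntn1, Sema3a, Sema3e and Sema5a. In GFP+ SNS pools 9 members were highest (Efna5, Epha10, Plxna3, Plxna4, Robo2, Sema3b, Sema3c, Sema4f and Sema4g) and in GFP- SNS pools 4 (Ephb2, Ntn5, Plxnb1 and Sema3d). The place changes for 4 members when the 12 pools are left out, Efnb1, Ntn5, Plxnb2 and Slit1, and with ERCC size factors 49 of the 63 keep it.

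Differences between pools were read from quasi-likelihood fits in edgeR, which took in each gene that had 10 counts or more in 5 or more of the pools. A gene is called here when its p-value, adjusted over all tested genes by the Benjamini-Hochberg method, is under 0.01 and its log2 fold change is beyond 0.1 in size. Fold changes are GFP+ over GFP- and carry their standard error (SE). In ECs (19 GFP+ and 20 GFP- pools) 47 members were tested. Of these, 24 were called higher in GFP+ ECs, where 19.5% of all tested genes were called higher, and 1 was called lower, against 16.5% of all genes. The median log2 fold change was 1.18 over the members and 0.10 over all genes. The calls spread over every family: 3 of 6 tested EphA receptors, 1 of 4 EphB receptors, 3 of 5 class A and 1 of 2 class B ephrins, 2 of 3 secreted and 4 of 11 membrane-bound semaphorins, 4 of 8 plexins, 2 of 2 Slits, 1 of 2 Robo receptors, 1 of 1 netrin and 2 of 3 netrin receptors were higher.

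**Figure D2:**
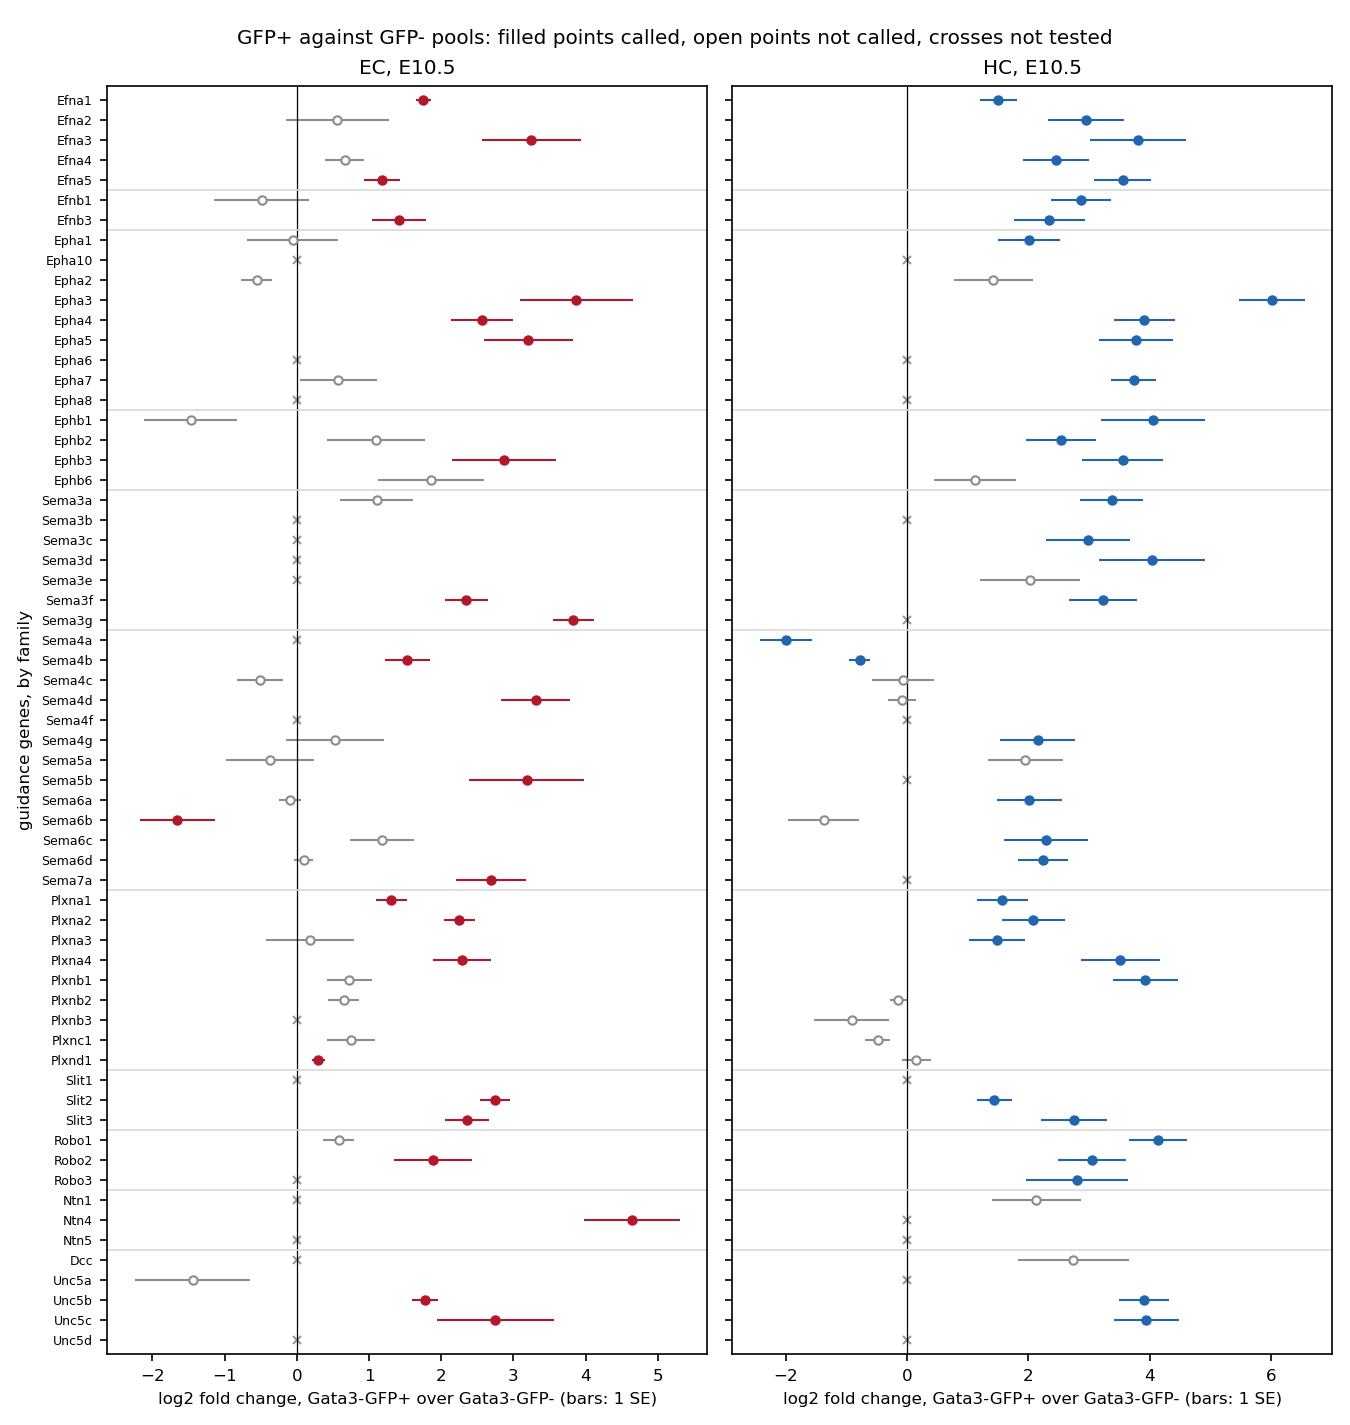
Log2 fold change of each guidance gene, GFP+ over GFP- pools (horizontal axis, bars of 1 SE), in ECs (19 and 20 pools) and HCs (20 and 20 pools) at E10.5, with genes by family on the vertical axis. Filled points are called by edgeR at an adjusted p under 0.01, open points are not called and crosses were not tested.

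The plot shows most called members to the right of zero in both cell types. Among the ligands, Efna1 had a lowest, median and highest pool of 586, 803 and 1167 CPM in GFP+ ECs and of 117.9, 235 and 393 CPM in GFP- ECs. The pools of the fractions did not overlap, and the log2 fold change was 1.75 (SE 0.11, adjusted p 1.89e-17). Sema3g, a secreted semaphorin of arterial endothelium, had 84.2, 125.1 and 281 CPM in GFP+ and 0.516, 6.82 and 26.2 CPM in GFP- pools. Every GFP+ pool again lay above every GFP- pool, with a log2 fold change of 3.83 (SE 0.29, adjusted p 1.11e-14). The Robo ligand Slit2 went from 2.81, 10.2 and 36.05 CPM in GFP- pools to 42.8, 78.02 and 161.3 CPM in GFP+ pools. It too separated the fractions without overlap, at 2.75 (SE 0.21, adjusted p 1.26e-14), and Slit3 was called with overlap of the pools at 2.36 (SE 0.31, adjusted p 2.00e-08).

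Sema4d, a plexin-B ligand that blood cells also carry, had 0.447, 7.72 and 22.9 CPM in GFP+ ECs and 0, 0.641 and 4.13 CPM in GFP- ECs. In 15 of 19 GFP+ pools it was above all GFP- pools, and the log2 fold change was 3.31 (SE 0.48, adjusted p 1.93e-07). Sema7a, the lipid-anchored ligand of Plxnc1, had 4.95, 13.3 and 32.8 CPM and 0, 1.17 and 7.20 CPM in the same order. Its pools overlapped for 2 of the 19 GFP+ pools, with a log2 fold change of 2.69 (SE 0.48, adjusted p 1.01e-05). The largest rise of any member was that of Ntn4, a laminin-like netrin, at 4.64 (SE 0.66, adjusted p 1.44e-07), from a median of 0 to 4.64 CPM. The other ligands called higher had log2 fold changes of 3.25 (Efna3), 3.18 (Sema5b), 2.35 (Sema3f), 1.53 (Sema4b), 1.41 (Efnb3) and 1.18 (Efna5). The only member called lower was the plexin-A ligand Sema6b, with 0, 0.867 and 8.75 CPM in GFP+ and 1.41, 5.76 and 10.8 CPM in GFP- pools. Its pools overlapped, the log2 fold change was -1.65 (SE 0.52, adjusted p 0.00781), and the call ended when no filter on low counts was set (adjusted p 0.0130).

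Among the receptors, Unc5b had 153.4, 252 and 457 CPM in GFP+ ECs and 9.65, 72.5 and 140.5 CPM in GFP- ECs. No pools overlapped, and the log2 fold change was 1.78 (SE 0.18, adjusted p 4.59e-11). Plxna2, a partner of neuropilins and a receptor of class 6 semaphorins, had 49.1, 87.3 and 217 CPM in GFP+ and 4.42, 16.5 and 43.2 CPM in GFP- pools. It was higher in every GFP+ pool as well, at 2.25 (SE 0.21, adjusted p 6.17e-12). Epha4, an Eph receptor that takes ephrins of both classes, rose by 2.56 (SE 0.43, adjusted p 3.74e-06), from a median of 2.60 to 29.2 CPM, with 15 of 19 GFP+ pools above all GFP- pools. Epha3 had a large fold change, 3.87 (SE 0.79, adjusted p 7.48e-05), on medians of only 0.899 and 0.383 CPM. Its highest GFP+ pool had 75.1 CPM and 7 of 19 GFP+ pools lay above all GFP- pools. Plxnd1, the endothelial receptor of Sema3e, had a small change, with medians of 496 and 442 CPM and a log2 fold change of 0.30 (SE 0.09, adjusted p 0.00782), which turned to -0.27 without a call under ERCC size factors. The other receptors called higher were at 3.21 (Epha5), 2.87 (Ephb3), 2.75 (Unc5c), 2.29 (Plxna4), 1.89 (Robo2) and 1.31 (Plxna1).

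The 16 members not tested in ECs were Dcc, Epha6, Epha8, Epha10, Ntn1, Ntn5, Plxnb3, Robo3, Sema3b, Sema3c, Sema3d, Sema3e, Sema4a, Sema4f, Slit1 and Unc5d. Scaling by the ERCC spike-ins in place of TMM lowered the median log2 fold change of all genes in ECs, a shift of -0.70. With it 17 members were called higher, where 6.31% of all genes were, and 4 lower, where 37.7% were. The calls of Unc5c (2.11), Robo2 (1.27), Sema4b (0.90), Efnb3 (0.71), Plxna1 (0.70), Efna5 (0.60) and Plxnd1 ended, and Epha2 (-1.32), Sema4c (-1.17) and Ephb1 (-2.28) were newly called lower. The share of calls that are higher moved by 39.7 points over all genes and by 15.05 points over the members.

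Of the other genes of the pathway, a list of 48 with co-receptors, further ligands and intracellular partners, 44 were tested in ECs, and 11 were called higher and 10 lower in GFP+ ECs. Of all tested genes 19.5% were higher and 16.5% lower. The neuropilins, which carry the secreted semaphorins, moved in opposite directions. Nrp1 had medians of 1152 CPM in GFP+ and 214 CPM in GFP- ECs, with a log2 fold change of 2.36 (SE 0.12, adjusted p 1.26e-19), and Nrp2 had medians of 9.08 and 195 CPM and a log2 fold change of -4.09 (SE 0.38, adjusted p 4.09e-12). Efnb2, the ephrin known as an arterial marker, went from a median of 104.3 to 590.0 CPM at 2.41 (SE 0.15, adjusted p 2.68e-17). Other values were 4.98 (Ntng1), -2.46 (Ntng2), -2.38 (Crmp1), -2.31 (Flrt2) and -0.74 (Robo4).

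Markers of other cell types also differed between the EC fractions. Of the 10 mesenchymal markers 8 were tested and 8 called higher in GFP+ ECs, and their summed level had a lowest, median and highest pool of 26.2, 94.7 and 1655 CPM in GFP+ ECs and 3.87, 16.5 and 72.2 CPM in GFP- ECs, with Col3a1 at 55.6 CPM the most abundant in GFP+ pools. Of the sympathetic markers 2 of 3 tested were higher, with sums of 269.6, 384 and 838 and 15.8, 46.96 and 149.03 CPM. Phox2a was at 0 in every GFP- pool. The sum is mostly 1 gene, Stmn2, with a mean of 407.5 CPM in GFP+ and 48.04 CPM in GFP- ECs. In each EC fraction 5 of the 10 sympathetic markers had a median of 0. Endothelial markers summed to 9071, 10999.9 and 12489.6 CPM (Ramp2) and 5513, 6455 and 7497 CPM (Emcn), and haematopoietic markers to 223, 290.3 and 450.5 and 51.6, 118.6 and 176 CPM (Laptm5). Further calls were 9 higher and 1 lower of 10 endothelial markers, 3 higher of 9 haematopoietic, 3 of 4 epithelial and mesonephric, 2 of 4 erythroid, 1 of 3 neural crest and 2 of 4 skeletal muscle markers tested. Epithelial and mesonephric markers summed to 23.7, 82.2 and 149.03 CPM (Krt18) and 0.875, 4.48 and 15.5 CPM (Epcam), and skeletal muscle markers to 5.90, 27.3 and 1129 CPM (Actc1) and 9.65, 19.96 and 37.97 CPM (Tnni1). Foxd3, Myod1 and Myog were at 0 in all GFP- EC pools, and Myod1 was at 0 in all GFP+ EC pools. Their part in the result was not tested.

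In HCs (20 and 20 pools) 50 members were tested, and 35 were called higher in GFP+ cells, where 17.1% of all genes were, and 2 lower, where 9.53% were. The median log2 fold change was 2.40 over the members and 0.05 over all genes. All 5 tested class A ephrins and both class B ephrins were higher, as were 5 of 6 EphA receptors, 3 of 4 EphB receptors, 2 of 2 Slits, 3 of 3 Robo receptors, 4 of 5 secreted semaphorins, 5 of 9 plexins and 2 of 3 netrin receptors. The membrane-bound semaphorins were divided, with 4 of 10 higher and 2 lower, and the single netrin tested, Ntn1, was not called.

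The largest change was that of Epha3, a receptor of class A ephrins, which had 1.05, 57.4 and 194 CPM in GFP+ HCs and 0, 0.277 and 7.15 CPM in GFP- HCs. All GFP+ pools but 1 lay above every GFP- pool, and the log2 fold change was 6.01 (SE 0.54, adjusted p 3.58e-11). Robo1, a Slit receptor, had 0.527, 18.5 and 44.2 CPM and 0, 0.624 and 4.91 CPM, with 19 of 20 GFP+ pools above all GFP- pools. Its log2 fold change was 4.13 (SE 0.47, adjusted p 6.66e-09). The netrin receptors Unc5c and Unc5b rose together: Unc5c had 2.38, 27.99 and 72.7 CPM in GFP+ and 0, 0.609 and 12.8 CPM in GFP- HCs, and Unc5b 3.16, 15.8 and 48.2 CPM and 0, 0.893 and 4.32 CPM. They overlapped in 4 and 2 GFP+ pools, and their log2 fold changes were 3.94 (SE 0.54, adjusted p 2.21e-07) and 3.91 (SE 0.41, adjusted p 1.25e-09).

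Epha4 had 1.05, 32.6 and 91.6 CPM in GFP+ HCs and 0, 0.876 and 8.95 CPM in GFP- HCs, and Plxnb1, the receptor of Sema4d, 0.527, 8.82 and 31.98 CPM and 0, 0.285 and 3.27 CPM. In both genes 18 of 20 GFP+ pools were above all GFP- pools, with log2 fold changes of 3.91 (SE 0.51, adjusted p 7.70e-08) and 3.93 (SE 0.54, adjusted p 2.25e-07). The remaining receptors called higher ranged from 4.05 (Ephb1) down to 1.48 (Plxna3), with 3.78 (Epha5), 3.73 (Epha7), 3.55 (Ephb3), 3.51 (Plxna4), 3.04 (Robo2), 2.80 (Robo3), 2.54 (Ephb2), 2.08 (Plxna2), 2.01 (Epha1) and 1.57 (Plxna1) between them. Epha7 was above all GFP- pools in 19 of 20 GFP+ pools as well.

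Among the ligands Sema3d had the largest log2 fold change, 4.04, and the class A ephrins were at 3.81 (Efna3), 3.55 (Efna5), 2.94 (Efna2), 2.45 (Efna4) and 1.502 (Efna1). The class B ephrins, which signal back into the cell that carries them, were at 2.87 (Efnb1) and 2.34 (Efnb3). The other semaphorins were at 3.37 (Sema3a), 3.22 (Sema3f), 2.98 (Sema3c), 2.29 (Sema6c), 2.24 (Sema6d), 2.15 (Sema4g) and 2.01 (Sema6a) and Slit3 was at 2.74. Slit2 had 7.38, 21.3 and 48.6 CPM in GFP+ and 3.17, 6.16 and 43.2 CPM in GFP- HCs. Only 1 GFP+ pool was above all GFP- pools, and the log2 fold change was 1.44 (SE 0.29, adjusted p 0.000103).

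The 2 members that fell are class 4 semaphorins found on blood cells. Sema4b had 8.59, 21.7 and 38.9 CPM in GFP+ HCs and 17.3, 34.03 and 62.8 CPM in GFP- HCs, and Sema4a 0, 2.50 and 11.9 CPM and 3.14, 12.9 and 31.8 CPM. The fractions overlapped for both, and the log2 fold changes were -0.78 (SE 0.18, adjusted p 0.000479) and -2.00 (SE 0.43, adjusted p 0.000265). Sema4d, of the same class, was at 4.29, 40.6 and 129.3 CPM and 15.6, 46.05 and 71.7 CPM and was not called (-0.08, SE 0.23). Members tested without a call were at 2.74 (Dcc), 2.13 (Ntn1), 2.03 (Sema3e), 1.95 (Sema5a), 1.42 (Epha2), 1.12 (Ephb6), 0.15 (Plxnd1), -0.07 (Sema4c), -0.14 (Plxnb2), -0.49 (Plxnc1), -0.91 (Plxnb3) and -1.38 (Sema6b), several of them large fold changes on few counts. The 13 members not tested in HCs were Epha6, Epha8, Epha10, Ntn4, Ntn5, Sema3b, Sema3g, Sema4f, Sema5b, Sema7a, Slit1, Unc5a and Unc5d.

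**Figure D3:**
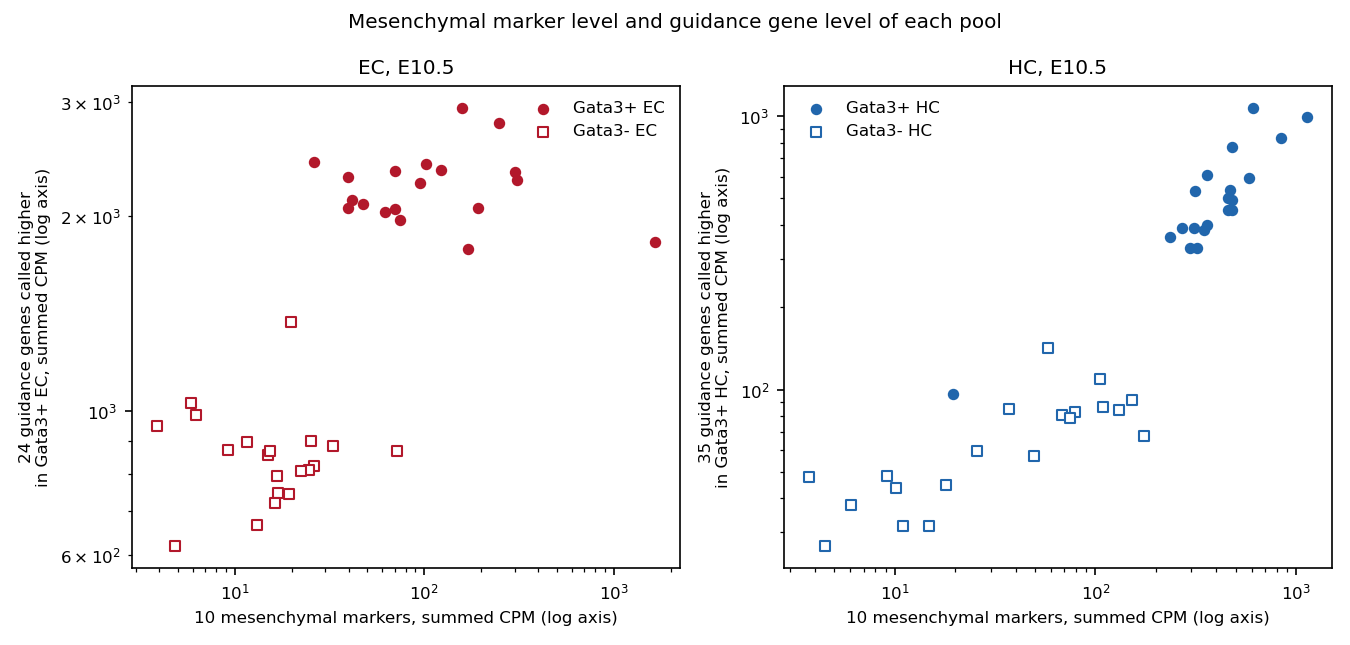
Summed level of the members called higher in GFP+ cells (vertical axis, CPM on a log scale) against the summed level of 10 mesenchymal markers (horizontal axis, CPM on a log scale), 1 point per pool, for ECs (24 members, 39 pools) and HCs (35 members, 40 pools). Filled points are GFP+ and open points GFP- pools.

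The points of the HC panel rise together from lower left to upper right. The members summed here were called in these same pools, so the split of the fractions along the vertical axis follows from how they were chosen and is a description only. The 35 members called higher in HCs summed to a lowest, median and highest pool of 96.5, 474 and 1072 CPM in GFP+ HCs and 26.7, 63.5 and 141.6 CPM in GFP- HCs. Mesenchymal markers summed to 19.5, 408 and 1135 CPM and 3.73, 43.3 and 175 CPM, with 19 of 20 GFP+ pools above all GFP- pools, and Col3a1 at 131.2 CPM the most abundant. The same GFP+ HC pool was lowest in both sums, at 96.5 CPM for the members and 19.5 CPM for the markers. In ECs the 24 members summed to 1781, 2255 and 2941 CPM in GFP+ and 618, 862 and 1376 CPM in GFP- pools. The mesenchymal sum of 11 of the 19 GFP+ EC pools was above that of all GFP- pools. The sympathetic sum, which in ECs is mostly Stmn2, was above that of all GFP- pools in all 19. In HCs the sympathetic sum of 16 of the 20 GFP+ pools was above that of all GFP- pools.

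Of the marker genes tested in HCs, 9 of 10 mesenchymal, 9 of 9 sympathetic, 6 of 6 epithelial and mesonephric, 5 of 6 neural crest, 7 of 10 endothelial and 3 of 5 skeletal muscle markers were called higher in GFP+ cells. Haematopoietic markers had 1 of 10 higher and 7 lower, and erythroid markers 1 of 8 higher and 1 lower. Sympathetic markers summed to 5.72, 142.99 and 2546 CPM in GFP+ and 2.57, 13.9 and 31.2 CPM in GFP- HCs, with Tubb3 at 85.2 CPM the most abundant in GFP+ pools, and skeletal muscle markers to 25.3, 125.8 and 729 and 5.07, 12.8 and 119.96 CPM, with Actc1 the most abundant. Epithelial and mesonephric markers summed to 2.11, 52.8 and 187 and 0.858, 8.92 and 25.7 CPM (Krt18), neural crest markers to 6.93, 30.6 and 325 and 0.572, 8.34 and 25.8 CPM (Cryab), and haematopoietic markers to 2843, 4677 and 8129.7 CPM (Fcer1g) and 6116, 7152 and 8963 CPM (Tyrobp). Endothelial markers summed to 153.7, 269 and 761 CPM (Esam) and 70.6, 127.2 and 261 CPM (Egfl7). No marker of these lists was at 0 in all pools of an HC fraction. The part of the marker genes in the HC result was not tested.

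Leaving out the 6 pools (1 GFP+ EC, 5 GFP+ HC) with over 500 CPM of summed mesenchymal or muscle markers was tried after seeing the data. In HCs 29 of 47 tested members were then called higher, where 13.8% of all genes were, and 2 lower, where 9.70% were, with a median log2 fold change of 2.28 against 0.01 over all genes. Epha3 was at 5.70 (SE 0.57, adjusted p 2.05e-09), Robo1 at 3.85, Unc5b at 3.52 and Slit2 at 1.19. The calls of Efnb3, Sema6a, Sema4g, Plxna1 and Plxna3 ended and Sema6c was no longer tested. In ECs 22 of 47 members were called higher, where 18.5% of all genes were, and 1 lower, where 16.99% were, and the calls of Unc5c (2.09) and Robo2 (1.65) ended. The remaining GFP+ pools still carried the markers. In HCs 7 of 10 mesenchymal, 4 of 6 sympathetic, 5 of 5 epithelial, 3 of 5 muscle, 2 of 5 neural crest and 7 of 10 endothelial markers were called higher, with median log2 fold changes of 2.61 over the mesenchymal and 3.76 over the sympathetic ones. In ECs it was 7 of 8 mesenchymal, 2 of 3 sympathetic, 3 of 4 epithelial and 2 of 4 muscle markers.

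Of the other pathway genes, 23 were called higher and 3 lower in GFP+ HCs, of 44 tested. Over all genes the shares were 17.1% and 9.53%. Draxin, a netrin and Dcc antagonist, was at 6.06, the Dpysl family members that relay semaphorin signals at 4.56 (Dpysl3) and 4.50 (Crmp1), and Rgma, a ligand of neogenin, at 4.49. Efnb2 and its receptor Ephb4 rose by 1.79 and 2.43. The 3 that fell were the kinases Fes (-1.32) and Abl2 (-0.49) and the actin regulator Evl (-0.74).

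The GFP differences of ECs and HCs have 17 members called higher in common, which is 40.5% of the 42 tested in both, where 5.58% of all genes tested in both were. Of these 42 members, 20 were higher in ECs and 32 in HCs, against 2697 and 2315 of the 14087 genes tested in both. A large overlap is partly given by such high call rates, and whether it exceeds them was not tested. Of the members tested in both, the 17 are 85% of those higher in ECs and 53.1% of those higher in HCs, against 29.1% and 33.95% over all genes. Sema4b alone was higher in GFP+ ECs and lower in GFP+ HCs, as were 1.20% of all genes. No member was lower in GFP+ ECs and higher in GFP+ HCs, where 1.87% of all genes were. Only 1 of the members tested in both was lower in GFP+ ECs, so this count says little about the members. The interaction, which is the GFP difference in HCs minus that in ECs, was tested in a fit of the 4 E10.5 populations, so it uses the pools of both comparisons. Of 55 members tested, 11 had a positive interaction, against 14.1% of all genes, and 6 a negative one, against 8.60%. The sign is that of the difference between the fold changes, and where the cell types change in opposite directions, as for Sema4b, it does not tell which change is larger. With ERCC size factors, which moved the median of all genes by 0.63, the counts were 16, where 29.4% of all genes were called, and 3, where 2.91% were, and the share that is higher moved by 28.8 points over all genes and 19.5 points over the members. The median interaction was 1.19 over the members and 0.11 over all genes.

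Receptors and ligands were called in both directions. The change was larger in HCs for Robo1, with an interaction of 3.51 (SE 0.47, adjusted p 4.20e-09), while its EC pools had medians of 41.8 CPM (GFP+) and 29.4 CPM (GFP-). Slit2, which Robo1 binds, changed more in ECs, at -1.31 (SE 0.35, adjusted p 0.00200), and Slit3 was not called (0.36, SE 0.59). Plxnb1 had an interaction of 3.15 (SE 0.58, adjusted p 8.45e-06) and its ligand Sema4d the reverse, -3.37 (SE 0.47, adjusted p 1.09e-08). The others were at 3.33 (Efnb1), 3.13 (Epha7), 2.36 (Efna5), 2.25 (Unc5b), -1.24 (Plxnc1), -2.32 (Sema4b), -2.47 (Sema3g) and -3.35 (Sema4a), with SEs of 0.32 to 0.91. With ERCC size factors the calls of Plxnc1 (-0.38), Sema4a (-2.68) and Slit2 (-0.97) ended. The Plxnc1 call also ended with the failing pools kept in (adjusted p 0.0108) and without the marker-high pools (0.0411). Of the marker genes, 4 of 9 sympathetic, 3 of 6 neural crest, 4 of 10 endothelial and 2 of 5 muscle markers had a positive interaction, 5 of 10 haematopoietic markers a negative and 1 a positive one, 1 of 10 mesenchymal and 1 of 8 erythroid markers a negative one, and 1 of 7 epithelial markers each. Their part in the interaction was not tested. Robo3, Ephb1, Sema3e, Sema6a and Sema6d were called as well, at 6.55, 5.51, 4.11, 2.09 and 2.08, on few counts in the higher population or with smaller changes.

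**Figure D4:**
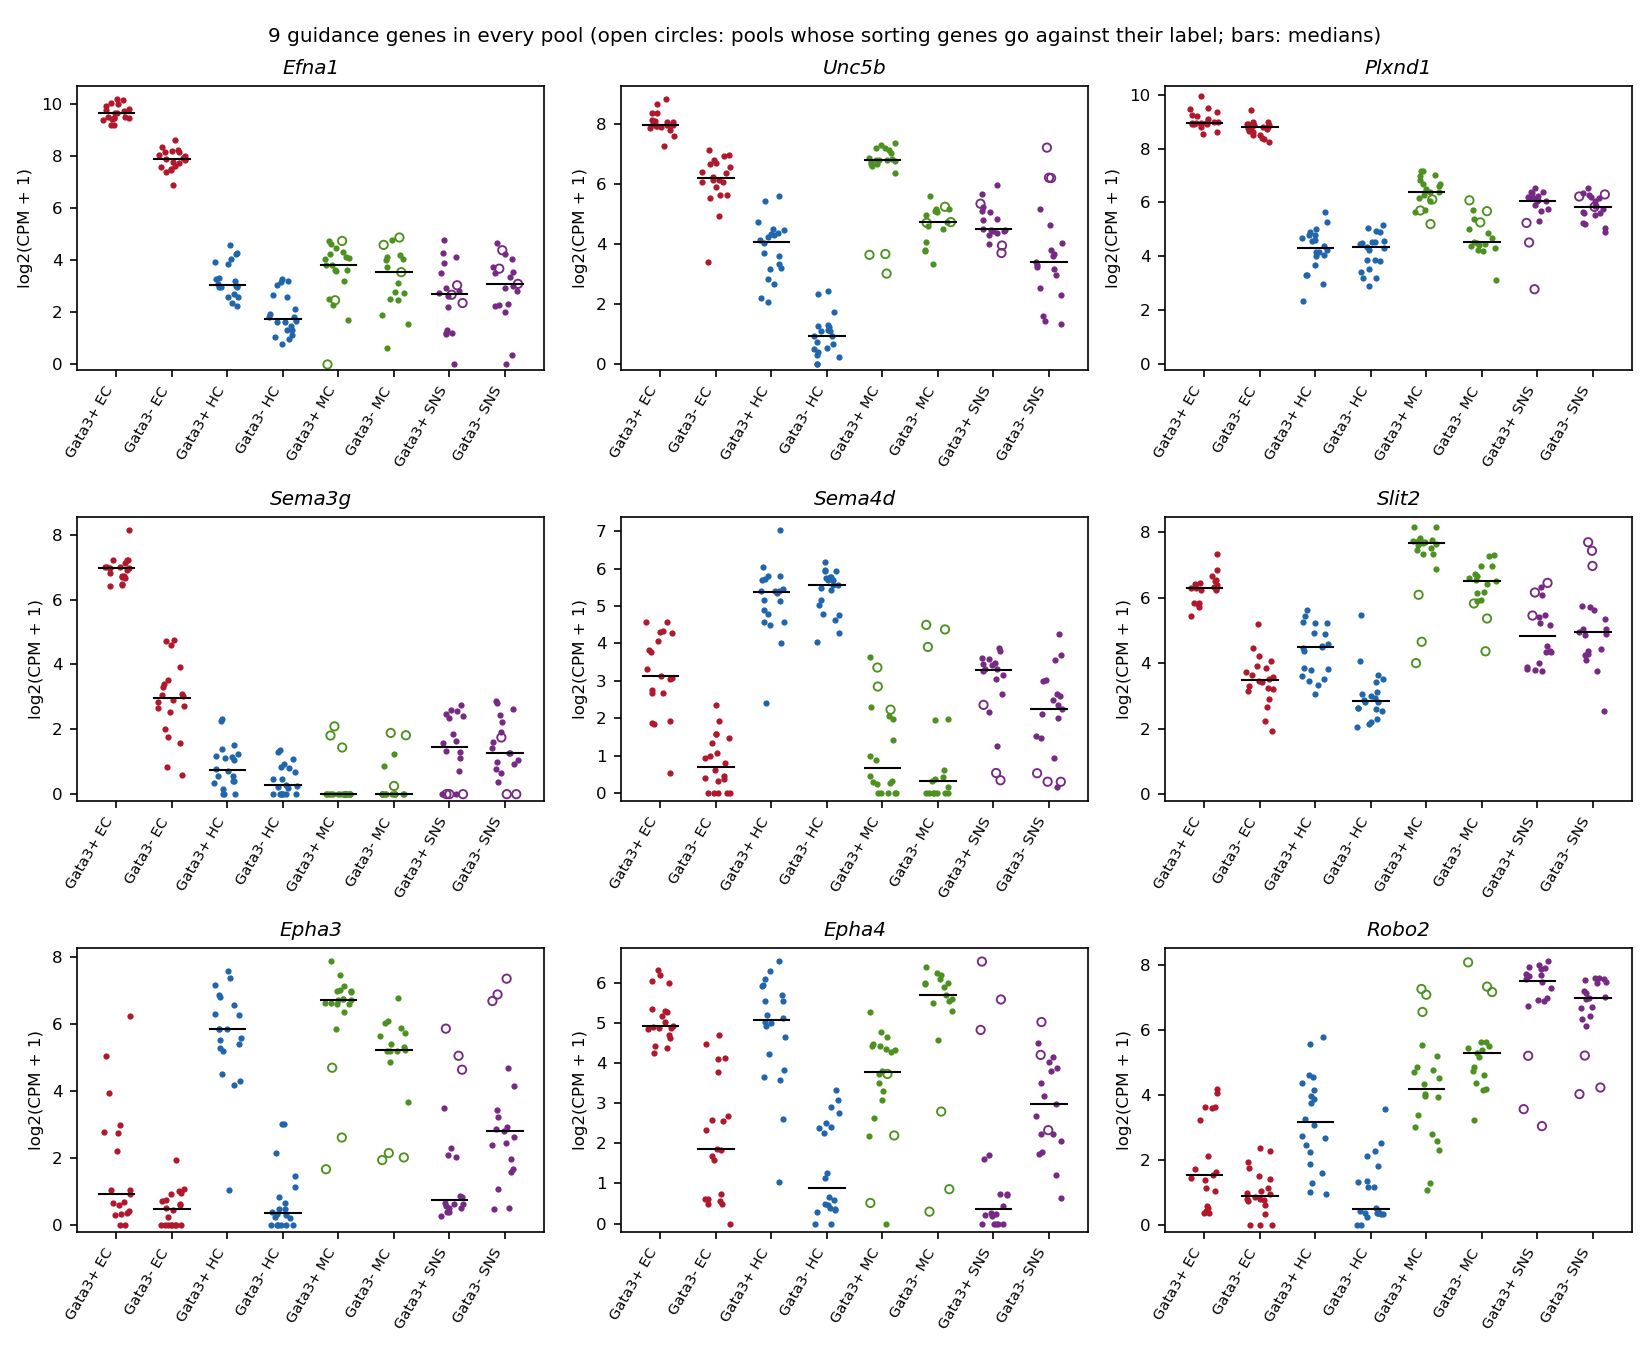
Level of 9 guidance genes as log2(CPM + 1) (vertical axis) in every passing pool of the 8 populations (horizontal axis), 17 to 20 pools each, with bars at the medians. Open circles are the 12 pools whose sorting genes go against their label.

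In these panels Efna1, Plxnd1 and Sema3g have their highest medians in ECs and Sema4d in HCs, and Epha3, Epha4 and Robo2 spread widely at E11.5, where the open circles sit among the points of the other cell type. HCs were also compared with ECs within each GFP fraction, on the same pools as the GFP comparisons. Between GFP+ HCs and GFP+ ECs, 16 of 55 members were called higher in HCs, where 24.7% of all genes were, and 16 lower, where 18.6% were, with a member median of -0.02 against 0.09. Between GFP- HCs and GFP- ECs, 7 of 55 were higher, where 18.2% of all genes were, and 21 lower, where 20.1% were, with a median of -0.94 against -0.01. In both fractions together, 7 members (12.7% of those tested) were higher in HCs, where 11.2% of all genes were, and 14 (25.5%) lower, where 10.8% were. With ERCC size factors, a shift of 0.71 in the median of all genes, the GFP+ contrast had 19 members higher, where 46.4% of all genes were, and 12 lower, where 7.80% were, and the share that is higher moved by 28.5 points over all genes and 11.3 points over the members.

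Several ligands were lower in HCs than in ECs, but the ligand families were divided. In GFP+ HCs 1 of 5 class A ephrins was lower and 0 higher. Secreted semaphorins had 3 of 6 higher and 2 lower, and membrane-bound ones 3 of 12 higher and 5 lower. Efna1 had medians of 7.35 CPM in GFP+ and 2.35 CPM in GFP- HCs, and log2 fold changes of HCs over ECs of -6.42 (SE 0.23, adjusted p 3.09e-40) in GFP+ and -6.21 (SE 0.23, adjusted p 1.24e-38) in GFP- cells. No HC pool reached an EC pool of the same fraction. Sema3g was at -6.92 (SE 0.39, adjusted p 5.78e-27) in GFP+ cells and Sema7a at -6.33 (SE 0.61, adjusted p 3.80e-15), both without overlap. In GFP- cells Sema6d (77.2, 157.4 and 247 CPM in ECs) was lower in HCs, at -5.39 (SE 0.33, adjusted p 2.81e-25), and Sema6a at -4.82 (SE 0.38, adjusted p 3.87e-19), again with no pools in common.

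Of the receptors, Unc5b, Plxnd1, Epha2 and Robo1 were lower in HCs. Plexins went both ways, with 3 of 9 higher and 3 lower in GFP+ HCs and 3 higher and 5 lower in GFP- HCs. Unc5b was at -4.02 (SE 0.26, adjusted p 7.79e-24) in GFP+ and -6.27 (SE 0.32, adjusted p 4.95e-30) in GFP- cells, and Plxnd1 at -4.73 (SE 0.20, adjusted p 1.99e-35) and -4.58, all without overlap. Epha2, a class A receptor, had medians of 24.97 and 35.96 CPM in GFP+ and GFP- ECs and was lower in HCs, at -3.61 (SE 0.43, adjusted p 2.28e-11) and -5.41 (SE 0.46, adjusted p 1.80e-17). Robo1 was lower too, at -4.70 (SE 0.37, adjusted p 4.14e-19) in GFP- HCs and -1.19 in GFP+ HCs. It thus separates the GFP- fractions completely and overlaps in the GFP+ fractions.

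Of the class 4 semaphorins Sema4a, Sema4b and Sema4d were higher in HCs, while Sema4c was lower (-1.75 in GFP+ and -2.17 in GFP- cells) and Sema4g was not called. Sema4d in GFP- HCs had 15.6, 46.05 and 71.7 CPM against 0, 0.641 and 4.13 CPM in GFP- ECs, a log2 fold change of 5.32 (SE 0.38, adjusted p 1.02e-21) without overlap. Sema4b was at 3.76 (SE 0.25, adjusted p 2.46e-23) and Sema4a at 7.36 (SE 0.66, adjusted p 9.38e-17) in GFP- cells, both without overlap, and the same genes were at 1.95 (Sema4d), 1.44 (Sema4b) and 4.01 (Sema4a) in GFP+ cells. Plxnb2, which binds Sema4 ligands, was at 2.41 (SE 0.19, adjusted p 5.59e-19) in GFP- and 1.62 in GFP+ cells with no overlap in either, and Plxnc1 at 2.42 (SE 0.28, adjusted p 5.16e-12) and 1.18. In GFP+ cells Unc5c (3.15, SE 0.64, adjusted p 1.77e-05), Epha3 (3.14, SE 0.57, adjusted p 2.64e-06), Epha7 (2.44, SE 0.45, adjusted p 3.72e-06), Efnb1 (2.73, SE 0.59, adjusted p 6.24e-05) and Ephb2 (2.08, SE 0.62, adjusted p 0.00336) were also called higher in HCs, and in GFP- cells they were not (1.92 (Unc5c), 1.09 (Epha3), -0.69 (Epha7), -0.60 (Efnb1) and 0.66 (Ephb2)). Of these 5 the interaction was called for Epha7 and Efnb1 only. The pools of these 5 overlapped in the GFP+ contrast. Markers of other cell types moved in the same contrast, with 8 of 9 sympathetic markers higher and 1 lower in GFP+ HCs, 3 of 6 neural crest, 3 of 10 mesenchymal, 2 of 5 muscle and 5 of 8 erythroid markers higher, 9 of 10 haematopoietic markers higher, 2 of 7 epithelial markers higher and 2 lower, and all 10 endothelial markers lower. In GFP- HCs 7 of 10 mesenchymal, 2 of 6 neural crest, 2 of 7 epithelial, 5 of 8 erythroid and 10 of 10 haematopoietic markers were higher, and 1 sympathetic, 1 neural crest, 1 epithelial, 1 erythroid and all 10 endothelial markers were lower. Their part in the contrasts of HCs and ECs was not tested. Other genes of the pathway gave 10 higher and 17 lower of 47 in GFP+ cells and 4 higher and 25 lower of 47 in GFP- cells. Robo4 was at -5.66 and -7.51 and Ephb4 at -3.16 and -5.73. All genes had 24.7% higher and 18.6% lower in GFP+ cells and 18.2% and 20.1% in GFP- cells.

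Since many members are higher in cells with an active Gata3 locus, their promoters were read for the letters that GATA proteins bind. The window runs from 250 bases before to 50 bases after the start, in the RefSeq promoter table on build GRCm38.p6, and the 4 motifs searched were AGATAA or AGATAG or TGATAA or TGATAG on both strands, where AGATAA appears as TTATCT when it lies on the other strand. The table holds 53 of the 63 members (not Dcc, Efnb3, Ntn1, Plxna1, Plxna4, Sema3b, Sema3f, Sema6a, Slit1 and Unc5d), and 10 of the 53 (18.9%) have a motif in a promoter, against 8930 of all 27025 genes of the table (33.04%). Counted by promoter it is 10 of 69 (14.5%) against 9778 of 32851 (29.8%). The members called higher in GFP+ cells have it in 5 of 20 (25%) for ECs and 7 of 30 (23.3%) for HCs, so a motif in this window is no more frequent among the members than among all genes. The 10 members are Plxna2, Sema6d, Efna4, Sema3a, Unc5b, Sema4d, Epha6, Epha3, Robo2 and Plxnb3. Shown are Unc5b (chr10:60831532-60831831, - strand), a receptor called higher in GFP+ ECs, HCs and MCs, Epha3 (chr16:63864126-63864425, - strand), the largest rise in HCs, and Sema4d (chr13:51739397-51739696, - strand), the member with 2 matches, each 5′ to 3′ with the motif in capitals. A match describes the letters only and is not evidence of binding.
Unc5b: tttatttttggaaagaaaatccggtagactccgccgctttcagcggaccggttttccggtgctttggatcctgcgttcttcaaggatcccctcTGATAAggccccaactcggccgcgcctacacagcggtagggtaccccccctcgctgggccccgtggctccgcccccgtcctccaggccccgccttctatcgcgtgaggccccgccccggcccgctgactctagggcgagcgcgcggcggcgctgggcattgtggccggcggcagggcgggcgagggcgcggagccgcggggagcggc
Epha3: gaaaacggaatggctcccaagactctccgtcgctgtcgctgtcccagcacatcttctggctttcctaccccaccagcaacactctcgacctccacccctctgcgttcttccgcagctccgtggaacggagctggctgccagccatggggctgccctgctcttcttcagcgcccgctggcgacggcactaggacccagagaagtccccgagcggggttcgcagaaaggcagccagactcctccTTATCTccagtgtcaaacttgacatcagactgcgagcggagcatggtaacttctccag
Sema4d: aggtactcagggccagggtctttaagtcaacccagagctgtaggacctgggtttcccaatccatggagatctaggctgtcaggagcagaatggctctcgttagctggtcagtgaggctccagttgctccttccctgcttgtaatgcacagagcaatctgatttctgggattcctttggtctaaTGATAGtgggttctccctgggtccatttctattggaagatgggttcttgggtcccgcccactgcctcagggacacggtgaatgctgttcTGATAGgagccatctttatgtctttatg

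At E11.5 fewer members were called. In MCs (20 GFP+ and 17 GFP- pools) 6 of 53 tested members were called higher, where 2.21% of all genes were, and 1 lower, where 2.15% were, with a median of 0.20 against -0.01. Without the 12 pools (17 against 14 MC pools) 12 of 51 were higher, where 5.52% of all genes were, and 4 lower, where 4.89% were, with a median of 0.15. ERCC size factors left 6 higher, where 1.72% of all genes were called, and 0 lower, where 0.655% were, and the share that is higher moved by 21.7 points over all genes and 14.3 points over the members. These size factors moved the median of all genes in MCs by 0.14 once the 12 pools were left out.

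The ligands called in MCs with all pools were Slit2, at 15.02, 202 and 284 CPM in GFP+ and 19.6, 89.99 and 157.8 CPM in GFP- pools, and Sema6d, at 24.2, 52.6 and 77.04 and 8.58, 32.99 and 62.6 CPM. The pools overlap, and for Slit2 16 of 20 GFP+ pools were above all GFP- pools. Log2 fold changes were 1.004 (SE 0.26, adjusted p 0.00869) for Slit2 and 0.78 (SE 0.17, adjusted p 0.00212) for Sema6d. The Slit2 call ended in the t-test (adjusted p 0.0289) and in a fit of the 4 populations of the stage (0.0316), and with no filter on low counts it fell on the limit. With the 12 pools left out, Slit2 was at 1.03 (SE 0.13, adjusted p 3.76e-07) and Sema6d at 0.70, and Slit3 (1.002) and Efna3 (1.12) were also higher. The ligands Efna4 (-0.67), Efnb3 (-0.97) and Sema3a (-2.35) were then lower.

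Of the receptors, Unc5b had 7.06, 110.9 and 165 CPM in GFP+ MCs and 9.17, 25.6 and 47.3 CPM in GFP- MCs. The low GFP+ pools are those that go against their label, and the log2 fold change was 1.94 (SE 0.29, adjusted p 1.64e-05) with all pools and 2.19 (SE 0.18, adjusted p 4.79e-11) without the 12, then with no overlap. Unc5c had 2.86, 225 and 385 CPM and 3.24, 82.96 and 130.2 CPM, and Plxnd1 35.7, 83.2 and 144.3 CPM and 7.66, 22.1 and 66.6 CPM. Their log2 fold changes were 1.43 (SE 0.34, adjusted p 0.00486) and 1.57 (SE 0.21, adjusted p 2.40e-06) with all pools and 1.503 (SE 0.14, adjusted p 5.89e-10) and 1.94 (SE 0.19, adjusted p 4.43e-09) without the 12. The Unc5c call ended in the t-test (adjusted p 0.0556) and in the fit of the 4 populations (0.0404). Epha7 had 52.3, 411 and 559 CPM in GFP+ and 75.7, 169.6 and 265 CPM in GFP- MCs, the highest CPM of any member in MCs, and a log2 fold change of 1.12 (SE 0.23, adjusted p 0.00114), or 1.18 without the 12 pools. Then the fractions no longer overlapped for Unc5b, Unc5c or Epha7.

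Epha4 went the other way, with 0, 12.6 and 37.2 CPM in GFP+ MCs and 0.229, 50.8 and 82.1 CPM in GFP- MCs. Its pools overlapped and the log2 fold change was -1.74 (SE 0.45, adjusted p 0.00964), or -1.85 (SE 0.30, adjusted p 2.63e-05) without the 12 pools. The call with all pools ended with DESeq2 size factors (adjusted p 0.0104), ERCC size factors (0.0213), no filter (0.0139), the fit of the 4 populations (0.0649) and the t-test (0.113). Epha5 (2.76, SE 0.59, adjusted p 0.000842), Epha6 (2.43, SE 0.60, adjusted p 0.00377), Epha3 (1.31) and Plxna2 (0.52) were called higher only without the 12 pools. Class A Eph receptors thus moved in opposite directions in the same cell type. The 10 members not tested in MCs were Epha8, Epha10, Ephb1, Ntn5, Plxnb3, Robo3, Sema3g, Sema7a, Slit1 and Unc5a. Other pathway genes had 4 higher and 1 lower of 45 tested, with 1.03 (Neo1), 0.81 (Efnb2), 0.68 (Nrp1) and 0.36 (Adam10) higher and Chn1 at -0.79, and 6 higher and 3 lower without the 12 pools. All genes had 2.21% higher and 2.15% lower, and 5.52% and 4.89% without the 12 pools.

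In SNS pools (18 GFP+ and 19 GFP-) 0 of 55 tested members were called higher, where 2.01% of all genes were, and 3 lower, where 1.86% were. At an unadjusted p under 0.05 it was 6 higher, where 11.4% of all genes were, and 12 lower, where 10.1% were, and the DESeq2 Wald test called 3 higher and the t-test 1. The median was 0.03 over the members and 0.00 over all genes. With ERCC size factors, a shift of 0.35, 3 were called higher, where 5.23% of all genes were, and 3 lower, where 1.05% were, and the share that is higher moved by 31.3 points over all genes and 50 points over the members. Leaving out the 12 pools (15 against 16 remain), 5 of 53 were higher, where 4.94% of all genes were, and 7 lower, where 5.48% were, with a median of -0.11 and an ERCC shift of 0.45.

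The ligand Sema3d had 0, 1.59 and 10.9 CPM in GFP+ SNS and 0.223, 31.8 and 52.9 CPM in GFP- SNS pools. In 16 of 19 GFP- pools it was above all GFP+ pools, and the log2 fold change was -3.68 (SE 0.57, adjusted p 4.15e-05). The fractions no longer overlapped without the 12 pools, at -3.69 (SE 0.39, adjusted p 1.17e-08). Sema6d, a membrane-bound ligand of plexin-A receptors, had 4.2996, 15.8 and 47.8 CPM and 12.9, 41.8 and 58.4 CPM, with overlapping pools and a log2 fold change of -0.89 (SE 0.22, adjusted p 0.00843), or -1.08 without the 12. The third was the ephrin receptor Ephb1, at a median of 0 in both fractions and a highest pool of 1.03 CPM in GFP+ and 7.97 CPM in GFP- pools. Its log2 fold change of -4.08 (SE 0.98, adjusted p 0.00555) rests on a few GFP- pools, and the call ended in the DESeq2 Wald test (adjusted p 0.0207) and in the t-test (0.110).

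The members called higher in GFP+ SNS once the 12 pools were left out were Slit3 (1.07, SE 0.16, adjusted p 5.27e-06), Epha7 (0.61, SE 0.12, adjusted p 0.000523), Unc5b (1.43, SE 0.32, adjusted p 0.00142), the Slit receptor Robo1 (0.77, SE 0.21, adjusted p 0.00741) and Epha10, an Eph receptor without kinase activity (2.97, SE 0.76, adjusted p 0.00524). The further members called lower were Epha4 (-3.98, SE 0.60, adjusted p 7.33e-06), Efnb1 (-1.52, SE 0.21, adjusted p 2.51e-06), Plxnc1 (-2.73) and Ntn1 (-3.60), beside Ephb1 (-4.19). Without the 12 pools Slit3, Unc5b and Epha7 were thus called higher in GFP+ cells of both E11.5 cell types, and Epha4 lower in both. With all pools none of these 4 was called in SNS. The share of all genes called in both cell types was not taken. The 8 members not tested in SNS were Epha1, Epha8, Ntn4, Ntn5, Robo3, Sema7a, Slit1 and Unc5d. Of 45 other pathway genes tested, 0 were higher and 2 lower, -1.18 (Flrt3) and -2.13 (Rgma), and without the 12 pools 4 were higher and 3 lower, with 1.23 (Dpysl5), -3.10 (Mical2) and -2.38 (Rgma). All genes had 2.01% higher and 1.86% lower, and 4.94% and 5.48% without the 12 pools.

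**Figure D5:**
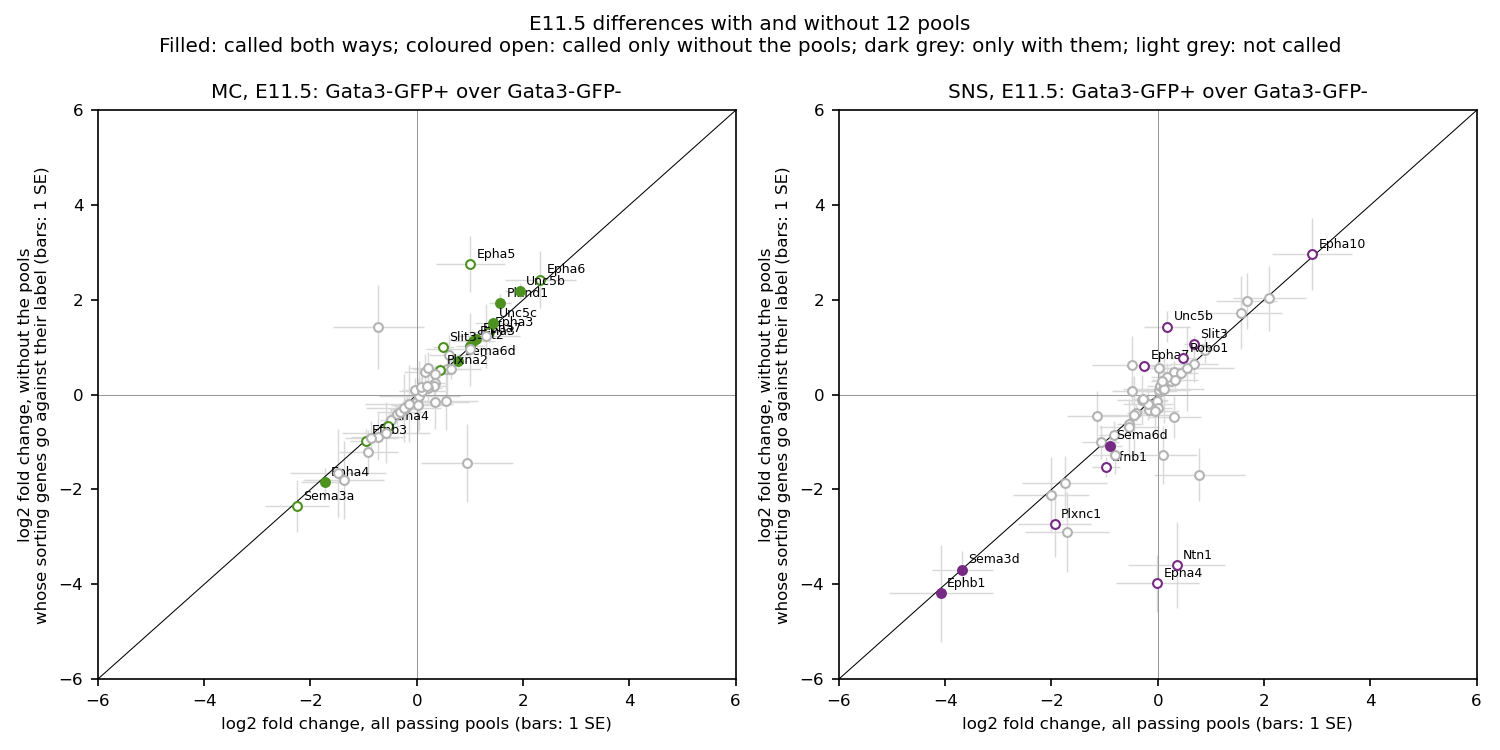
Log2 fold change of each guidance gene, GFP+ over GFP-, in MCs and SNS at E11.5 with all passing pools (horizontal axis; 20 and 17 MC pools, 18 and 19 SNS pools) and without the 12 pools whose sorting genes go against their label (vertical axis; 17 and 14, 15 and 16 pools), bars of 1 SE. Filled points are called both ways, coloured open points only without the 12 pools and dark grey points only with them.

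The points of genes called both ways lie near the diagonal. Marker genes were called as well. In MCs 1 of 10 mesenchymal and 1 of 5 muscle markers were higher and 4 of 9 sympathetic markers lower in GFP+ pools, and without the 12 pools 5 mesenchymal markers were higher and 1 lower, 2 muscle, 1 of 5 sympathetic and 1 of 6 neural crest markers higher. Mesenchymal markers summed to 1421, 5492 and 6236 CPM in GFP+ and 134.8, 3377 and 4232 CPM in GFP- MCs (Col3a1), and sympathetic markers to 43.1, 79.2 and 769 CPM (Stmn2) and 18.6, 37.4 and 6117 CPM (Dbh). In SNS 5 of 10 sympathetic markers were higher in GFP+ pools, and 1 of 10 mesenchymal, 1 of 10 neural crest and 3 of 6 epithelial markers lower. With these pools left out, 10 sympathetic markers were higher and 8 mesenchymal, 4 neural crest and 3 epithelial markers lower. Then 2 of 5 muscle and 1 of 5 endothelial markers were lower as well, and 1 of 3 haematopoietic markers was higher. Sympathetic markers summed to 47.1, 1627 and 4752 CPM (Tubb3) in GFP+ and 47.2, 546 and 1072 CPM in GFP- SNS pools, neural crest markers to 16.1, 1396 and 1900.4 CPM (Cryab) and 56.01, 1715 and 2079.8 CPM (Sox10), and mesenchymal markers to 149.7, 625 and 3403 and 921, 1366 and 6288 CPM (Postn). Myod1 was at 0 in both SNS fractions, Cd53 and Hbb-y in GFP+ SNS, and Myog, Hba-x, Hba-a1, Hbb-y and Slc4a1 in GFP- MC pools. Skeletal muscle markers summed to 33.5, 997 and 2098 and 18.1, 154.1 and 1137 CPM in GFP+ and GFP- MCs (Actc1). Their part in the E11.5 results was not tested.

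SNS and MC pools were also compared within each GFP fraction, with the same pools. Among GFP+ cells 3 of 59 members were higher in SNS, where 12.5% of all genes were, and 16 lower, where 12.01% were, with a median of -0.59 against -0.01. Among GFP- cells 3 of 59 were higher, where 3.16% of all genes were, and 5 lower, where 2.59% were, with a median of -0.35 against -0.01. Without the 12 pools it was 9 higher, where 18.9% of all genes were, and 23 lower, where 18.1% were, in GFP+ cells, and 13 higher and 20 lower in GFP- cells, where 11.1% of all genes were called in each direction. With TMM and the main settings, more members are thus called higher in MCs than in SNS in both fractions. In GFP- cells this did not hold with the filter at 20 pools, where 3 were lower in SNS and no fewer higher. ERCC size factors moved the median of all genes by 0.67 in GFP+ and 0.28 in GFP- cells. They gave 14 higher, where 42.9% of all genes were, and 14 lower, where 5.51% were, in GFP+ cells, and 4 higher, where 4.58% were, and 3 lower, where 1.02% were, in GFP- cells. The share that is higher moved by 37.5 points over all genes and 34.2 over the members in GFP+ cells, and by 26.8 and 19.6 points in GFP- cells. The shifts were 0.84 and 0.55 without the 12 pools. Ntn5, Robo3, Sema7a and Slit1 were not tested.

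The ligands Slit2 and Efna3 were lower in GFP+ SNS than in GFP+ MCs, at -2.30 (SE 0.34, adjusted p 1.81e-07) and -2.51 (SE 0.62, adjusted p 0.000794). Sema5a, a semaphorin with thrombospondin repeats, had 0.396, 4.81 and 95.3 CPM in GFP- SNS and 2.86, 137.5 and 242 CPM in GFP- MCs. The ranges overlap through the pools that go against their label, and the log2 fold change was -2.96 (SE 0.72, adjusted p 0.00303) with all pools and -4.76 (SE 0.34, adjusted p 1.81e-18) without the 12, when no pools overlapped. In GFP+ cells Sema5a was called only without the 12 pools, at -6.13 (SE 0.39, adjusted p 2.39e-21), also with no overlap. In GFP- cells Sema3d was higher in SNS, at 3.14 (SE 0.78, adjusted p 0.00358) and 3.33 without the 12 pools, and the ephrins Efnb3 (-1.82, SE 0.42, adjusted p 0.00197) and Efna4 (-1.13, SE 0.25, adjusted p 0.00103) were lower. The call of Efna4 ended with ERCC size factors (adjusted p 0.0126). Called without the 12 pools alone were Sema6b, at 5.28 (SE 0.61, adjusted p 3.88e-11) in GFP+ and 4.46 (SE 0.63, adjusted p 3.09e-08) in GFP- cells, Sema4d (2.50 and 3.23), Sema3b (2.26 and 2.02) and Sema3c (1.17 and 1.54). The falls then included -4.26 (Sema5b), -3.87 (Efna3) and -3.69 (Epha6) in GFP+ cells and -3.41 (Efna3), -2.88 (Epha3), -2.50 (Ntn1) and -2.48 (Sema3a) in GFP- cells. Further ligands called in GFP+ cells with all pools were at 2.47 (Sema3g), -2.89 (Sema5b), -1.86 (Sema6c), -1.54 (Sema6a), -1.40 (Sema6d) and -1.01 (Efnb1).

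Receptors set the cell types apart as well. Robo2 had 7.22, 180.1 and 274 CPM in GFP+ SNS and 1.13, 17.1 and 151.2 CPM in GFP+ MCs, and Plxna4, which pairs with neuropilins in sympathetic neurons, 1.36, 54.5 and 113.4 CPM and 0, 1.95 and 70.4 CPM. Both overlapped with all pools, with log2 fold changes of 2.27 (SE 0.44, adjusted p 2.72e-05) and 2.45 (SE 0.67, adjusted p 0.00254). Neither did without the 12 pools, and the values were 3.50 (SE 0.28, adjusted p 6.48e-17) and 5.13 (SE 0.39, adjusted p 6.26e-18). In GFP- cells these receptors were called only without the 12 pools, at 2.13 (Robo2) and 4.09 (Plxna4), again without overlap.

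On the other side, Epha3 had 0.205, 0.689 and 57.5 CPM in GFP+ SNS and 2.17, 105.1 and 236 CPM in GFP+ MCs. The highest SNS pools and the lowest MC pools are among those against their label, and the log2 fold change was -3.77 (SE 0.68, adjusted p 9.61e-06), or -6.09 (SE 0.45, adjusted p 1.23e-18) without the 12. Unc5c was at -2.90 (SE 0.51, adjusted p 6.00e-06), Epha7 at -1.98 (SE 0.30, adjusted p 3.35e-07) and Epha6 at -3.70 (SE 0.77, adjusted p 9.33e-05), and further receptors at -4.94 (Unc5d), -1.92 (Unc5b), -1.35 (Plxna2), -1.11 (Plxnb2) and -0.85 (Ephb3). Epha4 was called lower in SNS of both fractions only without the 12 pools, at -4.94 and -2.82. In GFP- cells with all pools Plxnd1 (0.98, SE 0.21, adjusted p 0.000710) and Plxnb1 (0.78, SE 0.19, adjusted p 0.00263) were higher in SNS and Plxnb2 lower (-0.62, SE 0.17, adjusted p 0.00994). The Plxnb2 call ended with ERCC size factors (-0.25), with no filter (adjusted p 0.0115) and with a filter at 20 pools (0.0103). Epha8 had 70 counts over the GFP- MC pools and 0 over the GFP- SNS pools, which is at least 31.4-fold lower at a floor of 3 counts (adjusted p 0.00191), and the call ended in the DESeq2 Wald test. The bound was 35.8-fold without the 12 pools. The other pathway genes had 11 higher and 14 lower of 46 in GFP+ cells, among them 2.64 (Crmp1), -2.66 (Mical2) and -2.02 (Neo1), and 2 higher and 1 lower of 46 in GFP- cells, at 1.08 (Gpc1), 0.85 (Fyn) and -1.59 (Flrt2). Without the 12 pools it was 15 and 15 of 45 in GFP+ and 10 and 8 of 45 in GFP- cells. All genes had 12.5% higher and 12.01% lower in GFP+ cells and 3.16% and 2.59% in GFP- cells. With the 12 pools left out these shares were 18.9% and 18.1% in GFP+ cells and 11.1% in each direction in GFP- cells. Of the markers, 8 sympathetic ones were higher and 8 mesenchymal ones lower in GFP+ SNS (9 and 10 without the 12 pools), and in GFP- SNS 7 neural crest and 1 mesenchymal marker were higher (10 and 1, with 9 mesenchymal ones lower and 8 sympathetic ones higher, without the 12). In GFP+ SNS 0 of 10 neural crest markers were called with all pools, and 9 were higher without the 12. Then 3 muscle, 2 epithelial and 2 erythroid markers were lower, and endothelial markers had 2 higher and 3 lower. The part of the markers in the SNS and MC contrasts was not tested.

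The interaction at E11.5, the GFP difference in SNS minus that in MCs, was called for 7 of 59 members, 1 higher, where 5.17% of all genes were, and 6 lower, where 4.49% were, with a median of -0.41 against -0.01. Without the 12 pools it was 2 higher, where 4.73% of all genes were, and 8 lower, where 5.64% were, with a median of -0.46 and an ERCC shift of 0.30. Marker genes were called too. With all pools 7 of 10 sympathetic markers were higher. Lower were 2 of 10 mesenchymal, 1 of 10 neural crest, 1 of 6 muscle and 2 of 7 epithelial markers. Without the 12 pools 4 sympathetic markers were higher and 9 mesenchymal, 3 muscle, 2 neural crest and 1 epithelial marker lower. Their part in the interaction was not tested. With ERCC size factors and all pools, a shift of 0.38, it was 1 higher, where 8.02% of all genes were, and 4 lower, where 2.50% were, and the share that is higher moved by 22.7 points over all genes and 5.71 points over the members. Ligands were Sema6d, at -1.68 (SE 0.28, adjusted p 8.32e-06) with all pools and -1.77 without the 12, and Sema3d, at -4.66 (SE 1.06, adjusted p 0.000799), whose call ended without the 12 pools (-2.36). Receptors were Plxnd1 (-1.52, SE 0.29, adjusted p 6.80e-05), Unc5c (-2.58, SE 0.69, adjusted p 0.00488), Epha3 (-3.13, SE 0.89, adjusted p 0.00835), Plxnb1 (-1.06, SE 0.26, adjusted p 0.00197) and Epha10 (4.18, SE 1.19, adjusted p 0.00808). Of these, Plxnd1, Unc5c and Epha3 were called again without the 12 pools, at -1.64, -1.94 and -3.20, and Plxnb1 (-0.92) and Epha10 (1.69) were not. Members called only without the 12 pools were at 3.83 (Sema4a), 1.37 (Robo2), -0.57 (Epha7), -1.38 (Efnb1), -2.13 (Epha4) and -3.44 (Sema5b). Sema6d has fold changes of opposite sign, higher in GFP+ MCs and lower in GFP+ SNS. The calls of Plxnb1 (-0.63) and Plxnd1 (-0.88) ended with ERCC size factors, that of Unc5c when ERCC size factors were used on the pools left without the 12 (-1.73), that of Epha3 with no filter (adjusted p 0.0129) and that of Epha10 in the DESeq2 Wald test (0.0196) and with the failing pools kept in (0.0189).

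Summed mean levels by family often rest on 1 gene. In GFP+ ECs Efna1 gives 828 CPM of the class A ephrins, Sema3g 126.996 CPM of the secreted semaphorins and Unc5b 272 CPM of the netrin receptors, and the other class A ephrins peak at E11.5. Class A ephrins summed to 896 CPM in GFP+ and 273 CPM in GFP- ECs and to 62.8 and 9.64 CPM in HCs, while class A Eph receptors were highest in MCs, at 525 and 274 CPM, and rose in HCs from 8.02 to 147.7 CPM. Slits were highest in MCs (255 and 141.7 CPM) and the sum of their Robo receptors in SNS (198 and 146.6 CPM). Robo2 gives 159.8 CPM of that sum in GFP+ SNS. Robo1 had its highest mean in GFP+ MCs (61.1 CPM), as the Slits did. Secreted semaphorins had their highest sum in GFP+ ECs (176 CPM, against 21.4 CPM in GFP- ECs), and plexins there too (795 and 529 CPM). Netrins stayed low everywhere, at 10.8 CPM or less (GFP- MCs), while their receptors reached 326 CPM in GFP+ MCs and 277 CPM in GFP+ ECs. Without the 12 pools class A Eph receptors summed to 601 and 306 CPM in MCs and to 101.2 and 76.5 CPM in SNS, where they had 127.4 and 158.5 CPM with all pools. Slits in MCs then summed to 287 and 140.8 CPM, Robo receptors in SNS to 223 and 157.6 CPM, netrins in GFP- MCs to 13.1 CPM and netrin receptors in GFP+ MCs to 378 CPM.

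Of the 63 members, 40 were tested in all 10 comparisons, and Ntn5 and Slit1 in none. With all passing pools, 19 members were called in no GFP comparison: Dcc, Epha2, Epha6, Epha8, Epha10, Ephb6, Ntn1, Ntn5, Plxnb2, Plxnb3, Plxnc1, Sema3b, Sema3e, Sema4c, Sema4f, Sema5a, Slit1, Unc5a and Unc5d. The strand setting of the counting is not known, so that reads of overlapping genes on the other strand may be counted. Such overlap covers 23.4% of the exon bases of Ntn5 (by Sec1), 14.1% of Efna3 (Gm15998), 10.7% of Plxna1 (Gm26811), a slightly smaller share of Efna4 (4731419I09Rik), 7.27% of Sema4c (D430040D24Rik) and 6.01% of Epha1 (Zyx).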

How the data were processed

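The values are the raw counts per gene that the authors deposited, made with HTSeq and neither normalized nor filtered. The methods text names STAR with Ensembl 81 as aligner and annotation, the submitters' notes GSNAP, HTSeq 0.5.3p3 and mm10. The strand setting is in neither. Reads naming no gene made up 38.3 to 67.6% of a pool (median 51.2%). All columns of per-pool values were used (0 unused). Gene IDs were matched to GENCODE M21, which held 45229 of 46078. Passing pools have at least 500000 reads on genes and ERCC RNAs, at least 20% on genes and at most 20% each on mitochondrial genes and ERCC RNAs. The study's further limit on high coverage genes was not applied, and passing pools had at least 9888 genes with 10 counts. Tests across all genes used edgeR 4.0.16 in R 4.3.3 (TMM, glmQLFit robust, glmQLFTest, Benjamini-Hochberg adjustment). The GFP comparisons were fitted per cell type and all other contrasts on the 4 populations of a stage. SEs are from the F statistics. DESeq2 1.42.0, scran 1.30.0 and scanpy 1.11.5 gave the alternatives, with Python 3.11.15, numpy 2.4.6, pandas 2.3.3 and matplotlib 3.10.9 for tables and figures. Genes named with tests are all called members or, when over 12 are called, the 6 largest rises and 6 largest falls among those with 10 counts in at least 75% of the pools of the higher population. Partners of these and further called members were named after their values were seen. The members, gene lists and rules were chosen with earlier results of these data known.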

Additional observations from a re-analysis of the deposited data

Results flagged for a closer look

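The GFP difference was not the same in ECs and HCs for 17 of 55 members (30.9%, against 22.7% of all genes, or 34.5% against 32.3% with ERCC size factors, when Plxnc1, Slit2 and Sema4a were not called) by the interaction test (19 and 20 EC pools, 20 and 20 HC pools). Given as the log2 difference in HCs minus that in ECs, it was 3.51 for Robo1, 3.33 for Efnb1, 3.15 for Plxnb1, 3.13 for Epha7, 2.36 for Efna5 and 2.25 for Unc5b. It was -1.24 for Plxnc1, -1.31 for Slit2, -2.32 for Sema4b, -2.47 for Sema3g, -3.35 for Sema4a and -3.37 for Sema4d. At E11.5 the difference between SNS and MCs was called for 7 of 59 members (11.9%), a share near the 9.66% of all genes, at 4.18 for Epha10, -1.06 for Plxnb1, -1.52 for Plxnd1, -1.68 for Sema6d, -2.58 for Unc5c, -3.13 for Epha3 and -4.66 for Sema3d. These were taken up because the GFP log2 fold changes of the cell types differ, in opposite directions for Sema4b at E10.5 and Sema6d at E11.5. Sema3d, Plxnb1 and Epha10 were no longer called without the 12 pools whose sorting genes go against their label, where Sema4a, Robo2, Epha7, Efnb1, Epha4 and Sema5b were newly called, and with ERCC size factors Plxnb1 and Plxnd1 were not.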

How the results depend on the processing

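Of 83 named values, 66 kept their direction and call under every alternative run for them and 68 under the planned ones. The t-test and the fit of the 4 populations were run for 25 of them, the filter at 20 pools for 78, leaving out the 12 pools for 33 and leaving out the marker-high pools for 50. None of the 83 reversed, and the small Plxnd1 difference in ECs, which is not among them, changed sign with ERCC size factors. The counts of called members that moved by more than 1.5 times, 32 in all, follow, each with the share of all genes called in that direction in parentheses. Higher in GFP+ ECs, 15 to 26, with 15 for a filter at 20 pools (21.1%), and lower 1 to 4, with 4 by ERCC size factors (37.7%) and 2 in the fit of the 4 populations (16.3%). Higher in GFP+ HCs, 20 to 37, with 20 for the filter at 20 pools (15.1%). Higher in GFP+ MCs, 4 to 12, with 12 without the 12 pools against their label (5.52%) and 12 with ERCC size factors added (6.75%). Lower in MCs it was 0 with DESeq2 size factors (2.03%), ERCC size factors (0.655%), no filter (1.43%) or the fit of the 4 populations (3.35%), 2 by the Wald test (2.69%), 4 without the 12 pools (4.89%) and 2 when ERCC size factors were added (1.497%). Higher in GFP+ SNS it was 1 with DESeq2 size factors (2.04%), 3 with ERCC (5.23%), 3 by the Wald test (2.92%), 1 by the t-test (1.12%), 5 without the 12 pools (4.94%) and 13 with ERCC size factors added (26.2%), and lower 7 (5.48%) and 7 (2.32%). GFP+ SNS over MCs gave 14 higher with ERCC (42.9%), 9 without the 12 pools (18.9%) and 20 with ERCC size factors added (53.3%). GFP- SNS over MCs gave 5 higher by the Wald test (3.50%), 5 with failing pools kept in (3.78%), 13 (11.1%) and 15 (36.2%) without the 12 pools, the latter with ERCC, and 3 lower with ERCC (1.02%), 3 with the filter at 20 pools (2.72%), 20 (11.1%) and 18 (5.07%) in the same order. The stricter filter tests fewer genes, and the cause of the moves was not tested. Leaving out the 12 pools, or the pools high in mesenchymal or muscle markers, was chosen after seeing the data. No paired analysis was possible because the columns carry no pool number that links a pool to a replicate. The limits are that p-values measure spread between pools of unknown replicates, that GFP marks locus activity only, that sorted pools can hold other cells, whose markers are given, and that members with few counts went untested.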
